A study of Mus musculus with 6 samples.

Results

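The genes of the NADPH oxidases and dual oxidases, enzymes that make superoxide or hydrogen peroxide (H2O2) on purpose, were followed in colonic tissue of mice with colitis. They were chosen by gene symbol. They comprise *Nox1*, *Noxo1*, *Noxa1*, *Duox2* and *Duoxa2*, whose products act mainly in epithelial cells, *Cybb* and *Ncf1*, whose products act mainly in phagocytes, *Cyba*, whose product is shared by both kinds of enzyme, and *Nox4*. All 9 were among the 27202 genes of the table, and 8 of them had a mean of at least 10 normalized counts (reads divided by 1 size factor per library) over the 6 libraries. These 8 were tested with limma on the log2(value + 1) scale together with every other gene past that filter, 16246 in all, and *Nox4* was not tested.

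The samples were 3 libraries of *Nedd4l fl/fl Villin Cre* mice (cKO1 to cKO3) and 3 of *Nedd4l fl/fl* littermates (WT1 to WT3). *Nedd4l* encodes a ubiquitin ligase, and Cre driven by the Villin promoter removes it from intestinal epithelial cells (IECs), so that leukocytes and stromal cells of the same tissue keep the gene. Every mouse, of either genotype, was 8 to 10 weeks old and had 2% dextran sulfate sodium (DSS), which injures the colonic epithelium, in its water until day 7, and no group without DSS was analysed here. Because the labels do not say whether a library came from 1 mouse or from several, p-values measure only the spread between these libraries.

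In these enzymes a membrane subunit passes electrons from NADPH across the membrane to oxygen. NOX1, the main oxidase of the colonic crypt, and NOX2, the phagocyte oxidase that *Cybb* encodes, both pair with p22phox, the product of *Cyba*, and are switched on by cytosolic partners, which are NOXO1 and NOXA1 for NOX1 and p47phox (from *Ncf1*), further cytosolic subunits and a Rac GTPase for NOX2. DUOX2 releases H2O2 at the luminal face of the gut epithelium and leaves the endoplasmic reticulum only with its maturation factor DUOXA2, while NOX2 serves the killing of microbes by neutrophils and macrophages, and its loss causes chronic granulomatous disease.

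Totals per library ran from 14914367 to 17547270 recovered reads. The targeted gene *Nedd4l* was at 476, 942 and 566 normalized counts in cKO1 to cKO3 and at 1241, 1271 and 1266 in WT1 to WT3, so cKO2 kept the most of it, and over all tested genes cKO2 correlated better with the WT libraries (mean r = 0.977) than with the other cKO libraries (0.966). With limma and Benjamini-Hochberg adjustment, 0 of 16246 genes had an adjusted p under 0.05 (0.0% called), 1122 were higher in cKO at an unadjusted p under 0.05 (6.91%) and 1151 lower (7.08%). edgeR on the 5 libraries other than WT3 also called 0 genes after adjustment (0.0% called), with 893 higher (5.5%) and 815 lower (5.02%) at an unadjusted p under 0.05. None of the oxidase differences described here passed the adjusted threshold, so they are given as measured values with intervals. The 12 epithelial markers all passed the filter. Among them, *Epcam* had means of 23179 normalized counts in cKO and 21424 in WT, and *Cdh1* of 20349 and 20533. The labelled colon thus held epithelial transcripts in quantity.

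To compare levels between genes, normalized counts were divided by the gene length in the table. *Duox2* had the highest level per length, 1620 ± 265 normalized counts per kilobase (SD, n = 6 libraries), followed by *Cyba* at 1443 ± 292 and *Duoxa2* at 1301 ± 147. Neighbours among these 3 overlapped in their ranges over the libraries. *Noxa1* at 645 ± 63.0 and *Nox1* at 562 ± 136 per kilobase came next and overlapped each other, and every library of *Duoxa2* lay above them. *Cybb* at 95.8 ± 26.9 and *Ncf1* at 71.6 ± 22.3 per kilobase overlapped each other too, and in all 6 libraries *Nox1* was above *Cybb*, by 5.86-fold in the means. The organizer *Noxo1*, at 16.3 ± 2.59 per kilobase, was below the activator *Noxa1* in every library, and *Nox4* was last at 0.489 ± 0.422. The order thus ran from the dual oxidase pair and p22phox through *Noxa1* and *Nox1* to the phagocyte genes, with the epithelial *Noxo1* and then *Nox4* below these.

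**Figure D1:**
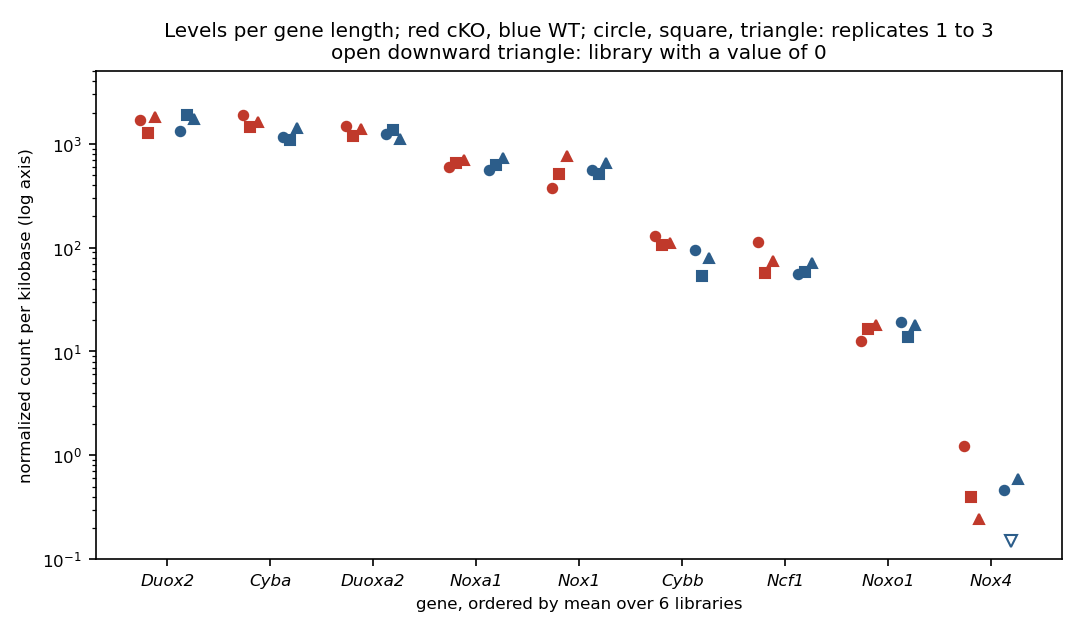
Levels of the 9 genes per gene length. The vertical axis is normalized counts per kilobase on a log scale, each point is 1 library, red stands for cKO and blue for WT, and the open triangle marks a library with a value of 0; *Duox2* is highest with a mean of 1620, and *Cybb* and *Ncf1* lie below *Nox1* in every library.

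Of the NOX1 complex, *Nox1*, *Noxo1* and *Noxa1* showed no difference between genotypes beyond the spread, while the shared *Cyba* is described separately below. *Nox1* (chrX:134086421-134221956, minus strand) had 1232, 1700 and 2549 normalized counts in cKO1 to cKO3 and 1848, 1676 and 2139 in WT1 to WT3. The lowest and the highest library were both cKO, and the WT libraries lay between them. The means were 1827 ± 668 in cKO and 1888 ± 234 in WT (SD, n = 3 each), and the log2 difference (cKO minus WT, as throughout) was -0.10 (SE 0.26, 95% interval -0.74 to 0.53, limma adjusted p = 0.879). Its sign followed single libraries, since it was 0.15 without cKO1, which had the lowest *Nox1* value, and -0.38 without cKO3, which had the highest. In the plot of values by sample, *Nox1* is the epithelial gene with the widest cKO spread relative to its mean.

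*Noxo1*, which encodes the organizer that tethers the complex at the membrane, had 38.3, 49.7 and 53.6 normalized counts in cKO1 to cKO3 and 58.3, 41.4 and 53.9 in WT1 to WT3. The genotypes overlapped, and cKO1 was again the lowest library. The log2 difference was -0.11 (SE 0.25, 95% interval -0.70 to 0.47, limma adjusted p = 0.859). *Noxa1*, the activator, had 970, 1051 and 1142 normalized counts in cKO1 to cKO3 against 903, 1019 and 1171 in WT1 to WT3. WT held both extremes of *Noxa1*, and the log2 difference was 0.04 (SE 0.12, 95% interval -0.23 to 0.30, limma adjusted p = 0.90). Over the 6 libraries *Nox1* correlated with *Noxo1* at r = 0.77 and with *Noxa1* at 0.63. This is a description, since the genes of a library share its size factor and cell makeup. *Noxo1* values carry a further limit, since 70.4% of its exon bases also lie in exons of *Tbl3* on the opposite strand, a gene with a mean of 538 normalized counts, and it is not stated whether the counting used strand. The same holds for smaller parts of *Nox1* (12.1% shared with *Cstf2*) and *Noxa1* (3.09% shared with *Entpd8*).

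The promoter of *Nox1* is shown because it belongs to the catalytic subunit of the epithelial complex, for comparison with that of *Cybb*. All promoters given are RefSeq windows on GRCm38.p6, from 250 bases before to 50 after the start, read 5′ to 3′ on the gene's strand, and all 9 genes had one. Motifs for 8 factors or core elements (TATA box, CCAAT box, AP-1, STAT, IRF, GATA, CDX and NF-kB) were searched on both strands, each spelled out where it is first found except NF-kB, whose consensus needs letters for more than 1 base and is given by name, and capitals mark the matches. Positions count back from the start to the first base of the match. The window of *Nox1*, chrX:134111805-134112104 on the minus strand, held a match to the NF-kB consensus at -91, which 4.51% of all 32851 windows hold, and a CDX match (TTTATNG) at -180, which 10.9% hold. Its G and C content was 38.0%, against a median of 52.7% over all windows. Where the RefSeq start of *Nox1* or *Cybb* is given, the table's gene reaches further upstream of it, so reads from other starts are in the same count, and the RefSeq start of *Duox2* lies upstream of the table's.
Nox1: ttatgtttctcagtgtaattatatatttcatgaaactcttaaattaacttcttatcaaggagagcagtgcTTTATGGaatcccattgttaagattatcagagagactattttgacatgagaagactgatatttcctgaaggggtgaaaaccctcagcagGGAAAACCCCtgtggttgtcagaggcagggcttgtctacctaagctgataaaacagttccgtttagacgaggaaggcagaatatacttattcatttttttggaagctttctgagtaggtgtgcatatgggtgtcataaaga

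The dual oxidase pair had the highest level per length of the epithelial genes, and its difference between genotypes was smaller than the spread between libraries. *Duox2* (chr2:122279247-122298165, minus strand) had 10915, 8092 and 11578 normalized counts in cKO1 to cKO3 and 8428, 12162 and 11064 in WT1 to WT3. In each genotype 1 library, cKO2 or WT1, lay well below the others, and the genotypes overlapped. Means were 10195 ± 1852 in cKO and 10551 ± 1919 in WT (SD, n = 3 each). The log2 difference was -0.05 (SE 0.18, 95% interval -0.47 to 0.37, limma adjusted p = 0.915). *Duoxa2*, the maturation factor, had 2391, 1883 and 2221 normalized counts in cKO1 to cKO3 and 1997, 2178 and 1759 in WT1 to WT3. These ranges overlapped as well, and the log2 difference was 0.13 (SE 0.12, 95% interval -0.14 to 0.40, limma adjusted p = 0.631). Log2 *Duox2* over *Duoxa2* lay between 2.08 and 2.65 in the 6 libraries, and the genes correlated at r = 0.44 over the same libraries.

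*Duox2* and *Duoxa2* lie head to head on opposite strands with their starts 735 bases apart in the table, and both promoters are shown because a pair that must be made together shares this short interval. The window of *Duox2*, chr2:122298178-122298477 on the minus strand, held 1 CCAAT box (CCAAT) at -183, a motif in 37.4% of windows. That of *Duoxa2*, chr2:122298650-122298949 on the plus strand, held a TATA box (TATAAA) at -30, found in 13.6% of windows, and a CDX match at -31 that overlaps it. An AP-1 match (TGANTCA, in 7.81% of windows) lay at -168. No motif was common to both windows.
Duox2: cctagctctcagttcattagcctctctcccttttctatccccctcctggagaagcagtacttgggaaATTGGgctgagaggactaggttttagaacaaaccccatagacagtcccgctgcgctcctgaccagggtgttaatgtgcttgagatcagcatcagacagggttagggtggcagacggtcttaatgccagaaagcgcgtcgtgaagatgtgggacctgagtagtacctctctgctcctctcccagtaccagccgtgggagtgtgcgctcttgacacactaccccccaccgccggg
Duoxa2: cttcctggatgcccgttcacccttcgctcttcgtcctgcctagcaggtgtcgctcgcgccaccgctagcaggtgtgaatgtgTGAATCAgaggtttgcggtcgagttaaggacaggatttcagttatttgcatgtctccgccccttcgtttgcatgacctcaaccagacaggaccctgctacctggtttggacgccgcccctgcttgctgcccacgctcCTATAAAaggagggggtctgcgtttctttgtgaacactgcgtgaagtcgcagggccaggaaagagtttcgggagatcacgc

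The neighbouring pair of the same locus was scarce. *Duoxa1* had 49.8, 36.5 and 53.6 normalized counts in cKO1 to cKO3 and 30.6, 47.7 and 31.0 in WT1 to WT3, with a log2 difference of 0.36 (95% interval -0.31 to 1.03, limma adjusted p = 0.583). *Duox1*, the dual oxidase better known from thyroid and airway, was below the filter, with 3.32 to 9.59 normalized counts in cKO and 4.99 to 13.5 in WT. Per length, *Duox1* had a mean of 1.66 normalized counts per kilobase over the 6 libraries, against 1620 for *Duox2*. Of the exon bases of *Duoxa2*, 42.8% are shared with *Duoxa1* on the other strand. The flanking genes overlapped between genotypes too: *Sord*, which encodes sorbitol dehydrogenase, had 609, 1626 and 1369 normalized counts in cKO1 to cKO3 against 1515 to 1857 in WT, and *Shf*, an adaptor gene, had 173 to 222 against 141 to 201.

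*Nox4*, which makes H2O2 constitutively and is known mainly from stromal and kidney cells, had 10.5, 3.32 and 2.06 normalized counts in cKO1 to cKO3 and 3.95, 0 and 4.99 in WT1 to WT3. Its values were at or near the level that a few reads give, the count of 0 in WT2 allows up to 2.70 normalized counts (3 reads, counting error only), and no difference was detectable at this depth.

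*Cyba*, the p22phox gene that serves NOX1, NOX2 and NOX4 alike, was higher in each cKO library than in any WT library. *Cyba* (chr8:122424776-122432930, minus strand) had 1949, 1510 and 1700 normalized counts in cKO1 to cKO3 and 1223, 1124 and 1493 in WT1 to WT3. The gap was narrow, since cKO2 stood just above WT3. The means were 1720 ± 220 and 1280 ± 191 (SD, n = 3 each), a 1.35-fold difference on the log2(value + 1) scale, with a log2 difference of 0.43 (SE 0.13, 95% interval 0.12 to 0.74) that did not pass the adjusted threshold (limma adjusted p = 0.28).

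*Cybb*, the catalytic subunit of the phagocyte enzyme, showed the widest difference of the 8 tested genes. *Cybb* (chrX:9435252-9487771, minus strand) had 751, 621 and 652 normalized counts in cKO1 to cKO3 and 547, 309 and 458 in WT1 to WT3. All cKO libraries were above all WT libraries, and WT2 was the lowest. Means were 675 ± 67.5 and 438 ± 121 (SD, n = 3 each), and the log2 difference was 0.66 (SE 0.21, 95% interval 0.18 to 1.14, 1.58-fold, limma adjusted p = 0.282). Without WT2 the log2 difference was 0.42, with a limma adjusted p of 0.512. *Ncf1*, whose product p47phox carries the cytosolic subunits to the membrane, had 418, 207 and 270 normalized counts in cKO1 to cKO3 and 204, 212 and 262 in WT1 to WT3. Here cKO1 stood alone above the rest and cKO2 lay inside the WT range, so the genotypes overlapped. The log2 difference of *Ncf1* was 0.35 (SE 0.25, 95% interval -0.24 to 0.93, limma adjusted p = 0.55), and it was 0.07 without cKO1. Of *Ncf1* exon bases, 11.1% are shared with *Gtf2ird2* on the other strand.

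With 3 libraries against 3 the smallest p of a two-sided exact permutation test is 0.10, which *Cyba* and *Cybb* reached. In all, 2 of the 8 tested oxidase genes had no overlap between genotypes and were higher in cKO, against 10.5% of all tested genes, and 0 were lower, against 10.9%. The same 2 genes had an unadjusted limma p under 0.05. Over the libraries *Cyba* correlated with *Cybb* at r = 0.83 and with *Ncf1* at 0.83, but with *Nox1* at -0.16 and with *Duox2* at 0.12. Its profile over these 6 libraries thus lay closer to the phagocyte genes than to its epithelial partner. This is a description only, since the genes of a library share its size factor. The value for *Cybb* also contains the separation by genotype already given for both genes.

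**Figure D2:**
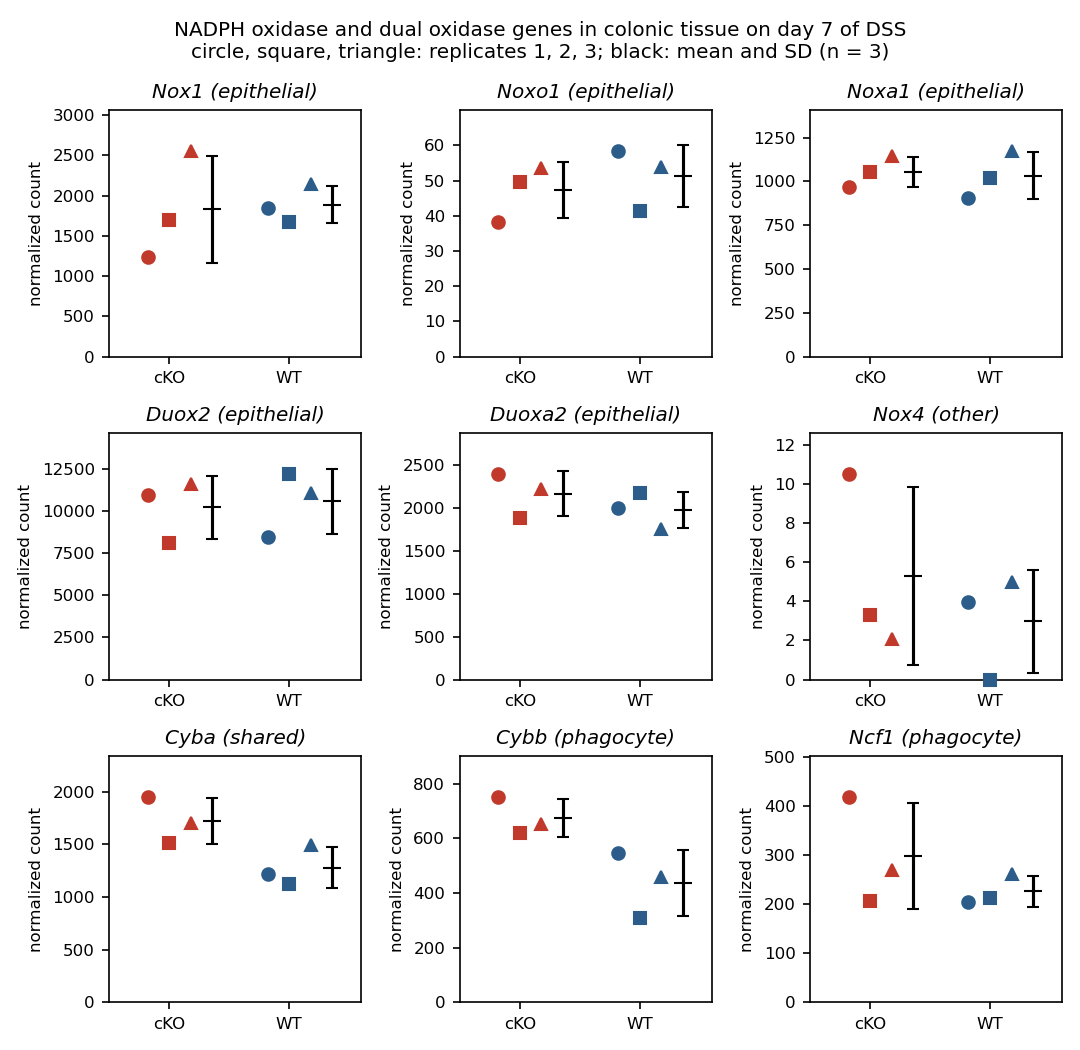
Values of the 9 oxidase genes by sample. Each panel gives normalized counts from 0 on a linear axis, with 3 cKO libraries in red, 3 WT libraries in blue and the mean with its SD in black; cKO and WT separate for *Cyba* (1510 to 1949 against 1124 to 1493) and *Cybb* (621 to 751 against 309 to 547) and overlap for the other 7 genes.

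The window of *Cybb*, chrX:9469275-9469574 on the minus strand, is shown for its contrast with that of *Nox1*. It held 3 IRF matches (GAAANNGAAA), at -168, -124 and -29, a motif found in 3.44% of all windows and, among the 9 oxidase genes, also in *Ncf1* (at -82). It further held a CCAAT box at -56, an AP-1 match at -139 and a GATA match (AGATAA) at -236, a motif in 11.2% of windows. The STAT motif (TTCNNNGAA, in 8.30% of windows) was found in the windows of *Ncf1* and *Nox4* among the 9 genes. The *Nox1* window held no IRF match, and that of *Cybb* held neither an NF-kB nor a CDX match. Its G and C content was 35.3%. These are matches of letters, and no binding was measured.
Cybb: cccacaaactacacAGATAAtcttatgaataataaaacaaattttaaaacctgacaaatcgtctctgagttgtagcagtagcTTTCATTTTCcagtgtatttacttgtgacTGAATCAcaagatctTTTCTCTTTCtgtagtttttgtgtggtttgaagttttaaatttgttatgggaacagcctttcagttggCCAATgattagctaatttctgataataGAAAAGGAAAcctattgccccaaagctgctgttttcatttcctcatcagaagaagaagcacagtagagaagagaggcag

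The contrast of epithelial with phagocyte enzymes was read within each library. The mean log2 level of the 5 epithelial genes was 10.03, 10.06 and 10.37 in cKO1 to cKO3 and 10.11, 10.15 and 10.25 in WT1 to WT3, and the genotypes overlapped. The mean of *Cybb* and *Ncf1* was 9.13, 8.49 and 8.72 in cKO and 8.39, 8.01 and 8.44 in WT. Every cKO library was above every WT library, though cKO2 stood just above WT3 and *Ncf1* alone overlapped. The first minus the second was 0.89, 1.57 and 1.66 in cKO1 to cKO3 and 1.72, 2.15 and 1.81 in WT1 to WT3. The excess of the epithelial over the phagocyte genes was thus smaller in each cKO library, with cKO1 far below and cKO3 close to WT1. The difference of the means was -0.52 on the log2 scale, and -0.28 without cKO1. Between genotypes the epithelial mean differed by -0.02 and the phagocyte mean by 0.5, so the contrast mainly restates the phagocyte genes. Single pairs of genes separated less well, since log2 *Cybb* over *Nox1* (-0.71, -1.45 and -1.97 in cKO1 to cKO3, -1.76, -2.44 and -2.22 in WT1 to WT3) and log2 *Cybb* over *Duox2* (-3.86, -3.70 and -4.15 against -3.95, -5.30 and -4.59) overlapped between genotypes.

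Markers of cell types were set beside these values, since in bulk tissue fewer cells of a type and less RNA per cell cannot be told apart. The 12 epithelial markers summed to 248332 to 282702 normalized counts in cKO and 264930 to 286106 in WT, and 0 of them had an unadjusted limma p under 0.05. The 13 monocyte and macrophage markers all passed the filter and summed to 12353 to 14190 in cKO and 7563 to 11823 in WT. Of these, *Ly6c2*, *Fcgr1*, *Ccr2*, *Lyz2* and *Cd68* were higher in cKO at an unadjusted limma p under 0.05, which 6.91% of all tested genes passed in that direction, and 0 were lower. The mean of this list, as a log2 difference from the WT mean, was 0.45, 0.67 and 0.52 in cKO1 to cKO3 and 0.41, -0.50 and 0.08 in WT1 to WT3. WT2 was thus the lowest library for the list and for *Cybb*.

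Each of the 3 genes was also set against both leukocyte lists, and the genotypes overlapped in every case. Log2 *Cybb* minus the mean log2 of the monocyte and macrophage markers was 0.52, 0.03 and 0.25 in cKO1 to cKO3 and 0.10, 0.19 and 0.18 in WT1 to WT3, and the means differed by 0.11. Against the mean of 5 pan-leukocyte markers (*Ptprc*, *Coro1a*, *Laptm5*, *Cd53* and *Itgb2*) the means of *Cybb* differed by 0.24. *Cyba* minus the pan-leukocyte mean was 0.45, 0.66 and 0.84 in cKO and 0.61, 0.68 and 0.63 in WT, with means that differed by 0.01, and against the monocyte and macrophage markers its means differed by -0.12. For *Ncf1* the means differed by -0.20 against the monocyte and macrophage markers and by -0.07 against the pan-leukocyte markers. The pan-leukocyte markers themselves summed to 5297 to 8083 in cKO and 4183 to 5674 in WT.

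The neutrophil list stood out in single libraries. Its 12 markers summed to 10959, 3076 and 3568 normalized counts in cKO1 to cKO3 and 3029 to 3304 in WT. *Ly6g* alone made up most of the sum in cKO2 (2832), cKO3 (2200) and WT (2829 to 3136). Outside cKO1 the sum thus says little about the other markers. Of the 12, 10 passed the filter, and their mean log2 difference from WT was 5.31 in cKO1, 0.57 in cKO2 and 2.89 in cKO3, against -0.20 to 0.21 in WT. This mean rests in part on *Cxcr2*, *Mmp8*, *Ngp* and *Retnlg*, which had WT means of 0.90, 1.29, 1.59 and 9.51 and so passed the filter only through cKO libraries, and it is no evidence of a difference. *S100a9*, a neutrophil marker of the list, had 2680, 27.6 and 348 normalized counts in cKO1 to cKO3 and 10.8 to 15.8 in WT. *Camp* and *Elane* were below the filter, *Cxcr2* was at 0 in WT1 and WT3 and *Mmp8* at 0 in WT3. *Ly6g* went the other way, at 2200 to 2832 in cKO and 2829 to 3136 in WT. cKO1, the library with the highest neutrophil values, was also the highest for *Ncf1*, *Cybb* and *Cyba* and the lowest for *Nox1* and *Noxo1*. The fibroblast list was highest in cKO1 as well, at 1.28, against 0.43 and 0.46 in the other cKO libraries and -0.37 to 0.40 in WT. So were the B cell list (1.2 against -0.80 to 0.69 in the other libraries) and the endothelial list (0.89 against -0.28 to 0.22), while the smooth muscle list was lowest there (-1.04 against -0.93 to 1.07). The mean of the crypt proliferation list, of interest beside the crypt oxidase *Nox1*, was lowest in cKO1 (-0.82, against -0.18 to 0.15 in the other libraries). *Lgr5*, *Ascl2* and *Axin2* were lowest there (39.3, 41.2 and 341 normalized counts). *Top2a* was lower in cKO2 (3920 against 4389), and *Mki67* was nearly equal in cKO1 and cKO2 (5976 and 6020). The mean of 3 tested distal colon markers was lowest in cKO1 too (-1.36 against -0.26 to 0.59). *Hoxd13* (17.3, against 78.9 to 651 in the other libraries) and *Hoxb13* (2279) were lowest there, but *Hoxa13* was lower in cKO3 (762 against 810). The part of these cell types and of the colon segment in the oxidase values was not tested.

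**Figure D3:**
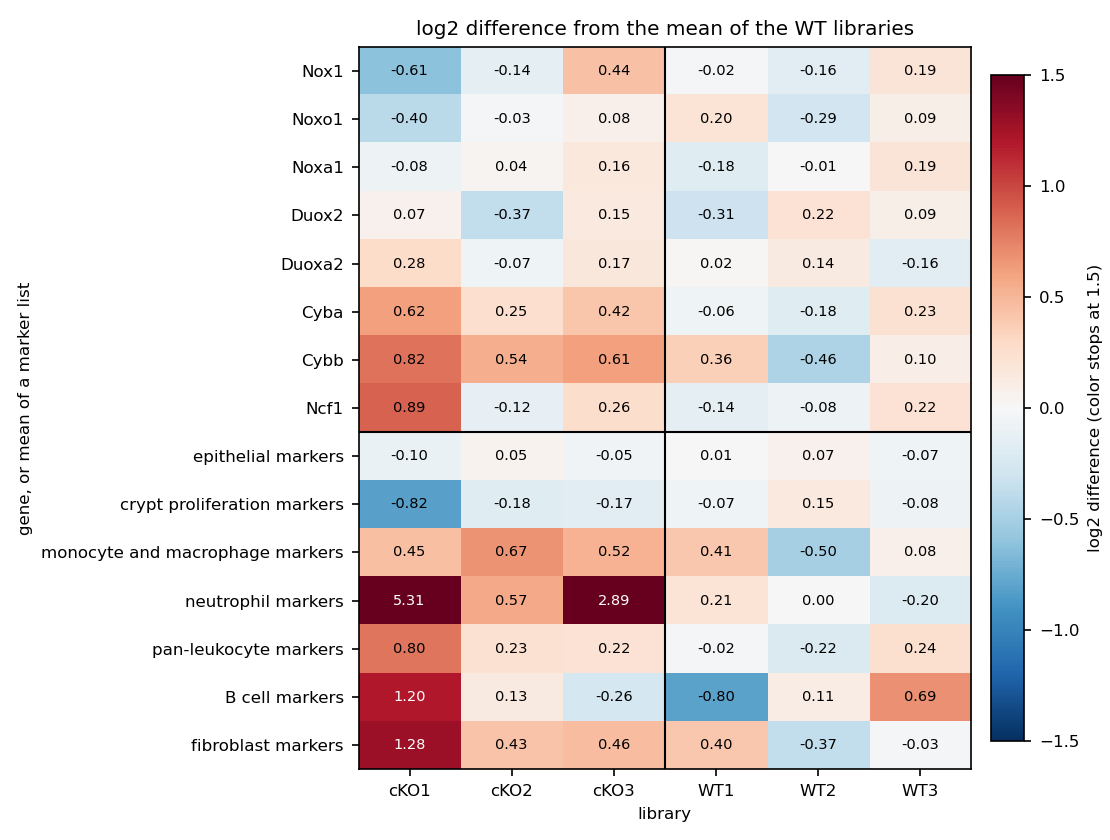
Log2 difference of each oxidase gene and of the mean of each marker list (rows) from the mean of the WT libraries, in each library (columns). Red is higher and blue lower, and the color stops at 1.5. cKO1 has the lowest *Nox1* (-0.61), the highest *Ncf1* (0.89) and the highest means of the neutrophil (5.31) and fibroblast (1.28) lists. The neutrophil mean rests in part on genes that passed the filter only through cKO libraries and is no evidence of a difference. Epithelial markers stay between -0.10 and 0.07.

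The wider oxidase pathway was described from a list of 25 genes that includes the 9, of which 24 were in the table and 22 passed the filter. After limma with adjustment 0 of 22 were called, and at an unadjusted p under 0.05, which 6.91% of all tested genes passed higher in cKO and 7.08% lower, 5 were higher and 0 lower. The median log2 difference of the 22 was 0.23, against 0.0013 over all tested genes, and 17 of the 22 were above 0, against 8160 of 16246. Per library, the list's mean log2 difference from WT was 0.43, 0.10 and 0.22 in cKO1 to cKO3. In WT1 to WT3 it was -0.01, -0.09 and 0.11, so the genotypes overlapped and cKO1 was highest. The pan-leukocyte markers had a median of 0.46, and the part of leukocyte content in the list's values was not tested. Beside *Cybb* and *Cyba*, the 5 genes with an unadjusted limma p under 0.05 were *Nrros*, *Sh3pxd2a* and *Arhgdib*. *Ncf4*, which encodes p40phox, a cytosolic subunit of NOX2, overlapped at 295, 154 and 194 normalized counts in cKO1 to cKO3 against 162, 156 and 227 in WT1 to WT3, with a log2 difference of 0.21 (limma adjusted p = 0.736). *Rac2*, the leukocyte Rac GTPase, was at 938, 660 and 567 against 512, 498 and 677 and overlapped, with a log2 difference of 0.34 (limma adjusted p = 0.471).

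Not every gene in that direction promotes oxidase activity. *Nrros*, whose product lowers the amount of NOX2 protein in myeloid cells, had 388, 260 and 248 normalized counts in cKO1 to cKO3 and 169, 157 and 204 in WT1 to WT3, a log2 difference of 0.73 (limma adjusted p = 0.25). *Sh3pxd2a*, whose product Tks5 is a scaffold related to p47phox, had 1081, 868 and 859 against 701, 550 and 611, a log2 difference of 0.59 (limma adjusted p = 0.194). Both were without overlap. *Arhgdib*, which encodes a GTPase inhibitor of blood cells, overlapped at 863, 558 and 481 against 364, 277 and 505, with a log2 difference of 0.73 (limma adjusted p = 0.344) and 0.48 without cKO1. The widely expressed *Rac1* had a log2 difference of -0.01, and *Cybc1*, which encodes a chaperone of the NOX2 heterodimer, one of 0.22 (limma adjusted p = 0.452).

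**Figure D4:**
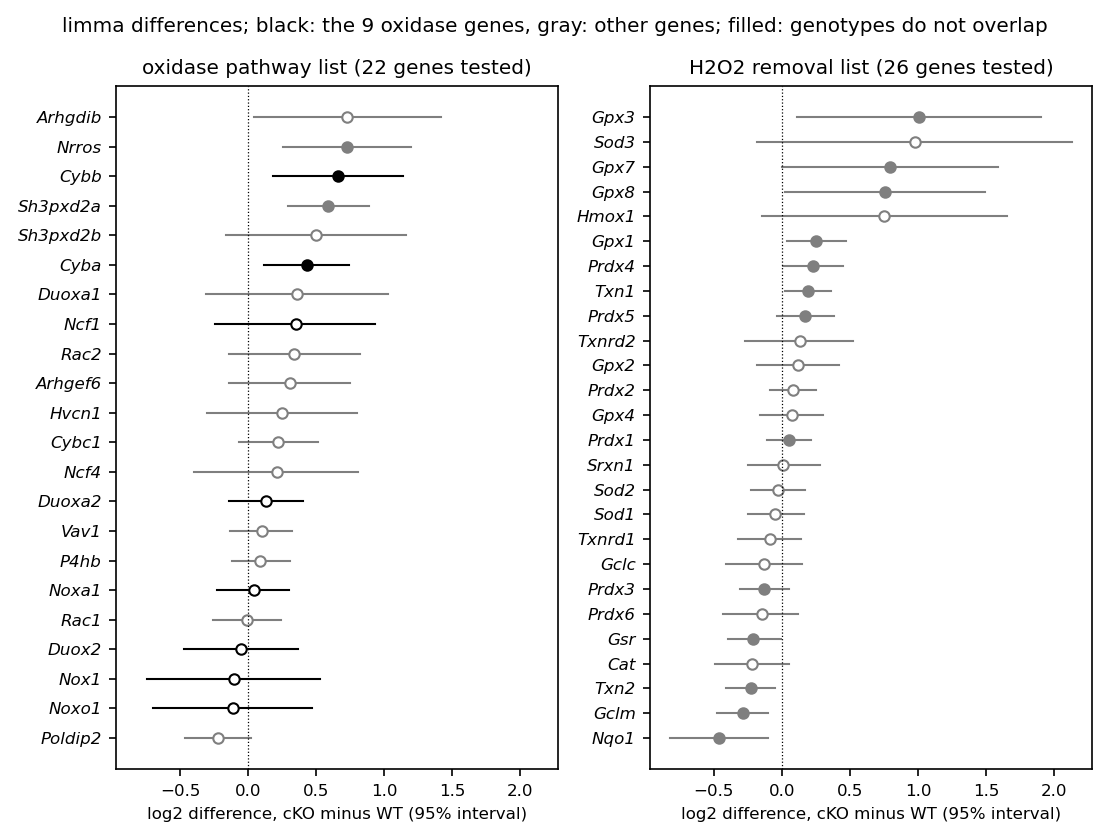
Log2 differences (cKO minus WT) with 95% intervals from limma for 22 tested genes of the oxidase pathway list (left) and 26 of the H2O2 removal list (right). Black marks the oxidase genes followed here, gray the others, and filled points genes without overlap between genotypes; *Cybb* (0.66) and *Cyba* (0.43) lie to the right of 0, and the 5 epithelial genes lie between -0.11 and 0.13.

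Enzymes that use H2O2 were described next. *Lpo*, the lactoperoxidase that turns H2O2 from dual oxidases into antimicrobial hypothiocyanite, had 991, 599 and 570 normalized counts in cKO1 to cKO3 and 411, 527 and 568 in WT1 to WT3. The groups did not overlap, though cKO3 and WT3 were nearly equal, and the log2 difference was 0.49 (95% interval -0.06 to 1.04, limma adjusted p = 0.397) and 0.23 without cKO1. *Mpo*, the neutrophil peroxidase, was below the filter, at 0 to 3.83 in cKO and 0 to 0.999 in WT. *Pxdn*, the peroxidase of basement membranes, overlapped, with a log2 difference of 0.20.

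Genes of H2O2 removal had both directions. Of 26 tested, limma called 0 after adjustment, with 6 higher and 4 lower in cKO at an unadjusted p under 0.05 (6.91% and 7.08% of all tested genes), and the median log2 difference was 0.06. The higher ones were the glutathione peroxidases *Gpx3* (log2 difference 1.01), *Gpx7* (0.79), *Gpx8* (0.76) and *Gpx1* (0.25), with *Prdx4* (0.23) and *Txn1* (0.19). *Gpx3*, the secreted form, had 2238, 931 and 1013 normalized counts in cKO1 to cKO3 and 663, 518 and 757 in WT1 to WT3, so that cKO1 was again far above the rest (limma adjusted p = 0.33). The lower ones were *Gclm*, *Nqo1*, *Txn2* and *Gsr*, of which *Nqo1*, a quinone reductase gene, had 387, 418 and 356 against 666, 452 and 496 (log2 difference -0.46, limma adjusted p = 0.301) and *Gclm*, of glutathione synthesis, 1330, 1369 and 1289 against 1750, 1598 and 1527 (log2 difference -0.29, limma adjusted p = 0.258). Without overlap but above that p were *Prdx5* and *Prdx1* on the higher side and *Prdx3* on the lower. *Gpx2*, the epithelial glutathione peroxidase, was abundant at 12449 to 14146 in cKO and 10351 to 14752 in WT and overlapped, like the epithelial oxidases.

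The genes whose profile over the 6 libraries was most like that of 3 oxidase genes were found by Pearson correlation of log2(value + 1) among 11879 protein-coding genes with a mean of at least 50. For *Nox1* they were *H2-Eb1* (r = 0.989), *Slc25a36*, *Ebpl*, *Rreb1* and *Fabp6* (0.974), and *Fabp6* shared its low value in cKO1 (27.8) and its high value in cKO3 (163). For *Duox2* they were *Ube2v2* (0.979), *Brsk1*, *Polm*, *Med30* and *Stx16* (0.973), all with low values in cKO2 and WT1. For *Cybb* they were *Zhx1* (0.996), *Lama4*, *Pcolce*, *Ccr1* and *Scnn1b* (0.987). *Ccr1*, a leukocyte chemokine receptor gene, had 314, 220 and 226 in cKO1 to cKO3 and 210, 89.1 and 159 in WT1 to WT3, and *Scnn1b*, a subunit gene of the epithelial sodium channel, 108, 73.0 and 95.9 against 47.4, 17.1 and 39.9. With 6 libraries, 289 genes reached r above 0.9 with *Cybb*, 56 with *Nox1* and 44 with *Duox2*, so these likenesses are descriptions of shared library profiles.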

How the data were processed

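RNA of mouse colon was made into NEBNext libraries and sequenced by the authors, who, per the submitters' processing notes, aligned reads with HISAT2 2.0.5 and counted them per gene with featureCounts 1.5.0-p3. The authors deposited 1 table of normalized counts, a signal equal to reads divided by 1 size factor per library, with columns of their own genotype means, log2 fold changes, p-values and adjusted p-values that were not used. All per-sample columns were used (0 left out). The labels name a human build, hg18, whereas 97.3% of 27164 gene identifiers matched in GENCODE M21 have identical coordinates on GRCm38 (*Duox2* is an exception); coordinates are those of the table. Strand use in counting is not given in the sources used here.

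After the log2(value + 1) transform and a filter that kept a mean of 10 or more, limma 3.58.1 (R 4.3.3; trend and robust) was run on 3 cKO against 3 WT libraries with Benjamini-Hochberg adjustment at 0.05. All values of each library were whole multiples of a step (tolerance 0.001 steps; 100% of values), and 1 step was taken as 1 read. For WT3 the step was too near 1 for this to be checked, so edgeR 4.0.16 (quasi-likelihood, TMM) was run, as an alternative chosen after seeing the data, on the whole reads of the other 5. Both tests were run on simulated counts with the same dispersion for every gene, which does not model libraries that differ in cell makeup. Python 3.11.15, SciPy 1.17.1 and matplotlib 3.10.9 were also used.

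The oxidase genes and all lists were chosen with earlier results of these data known. Named were the 9 genes, list genes with an unadjusted p under 0.05 or no overlap, *Duox1*, *Duoxa1*, *Ncf4*, *Rac2*, *Nedd4l*, the neighbours of *Duox2* and the 5 genes most correlated with *Nox1*, *Duox2* and *Cybb*; others, such as *Rac1*, *Cybc1*, *Gpx2*, *Pxdn* and markers, were picked after their values were seen. Some genes are not reported here and were left out of the lists.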

Additional observations from a re-analysis of the deposited data

How the results depend on the processing

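The oxidase genes gave 0 calls in all 14 alternatives: a pseudocount of 0.5 or 5, no filter, a mean of at least 50, quantile normalization, array weights, the replicate block, leaving out each library and edgeR on 5 libraries (*Noxo1* was not in the fit with a mean of at least 50). *Cybb* kept its direction, with log2 differences of 0.42 to 0.84 and adjusted p from 0.0769 to 0.512, as did *Cyba* (0.33 to 0.55, adjusted p 0.0752 to 0.531), *Ncf1* (0.07 to 0.58) and *Duoxa2* (0.05 to 0.23). The sign of the others was not stable, with ranges over the libraries left out in turn of -0.38 to 0.15 for *Nox1*, -0.26 to 0.03 for *Noxo1*, -0.05 to 0.13 for *Noxa1* and -0.20 to 0.11 for *Duox2*. By setting, with array weights *Nox1* was at 0.27, *Noxo1* at 0.01 and *Duox2* at 0.09, with edgeR *Nox1* was at 0.05, without cKO3 *Noxa1* was at -0.02, and without WT2 *Duox2* was at 0.06; the ends of those ranges opposite in sign came without cKO1 (*Nox1*, *Noxo1*), cKO2 (*Duox2*) and WT1 (*Noxa1*). The epithelial minus phagocyte difference ran from -0.66 to -0.28 over the 9 alternatives in which it was calculated. Array weights, the replicate block, the other filters and edgeR were not among them. Over all genes, 30 were called with no filter, 631 with array weights, 24 without cKO1, 122 without cKO2, and 0 to 122 over the libraries left out in turn; the cause was not tested. Array weights called 1 gene of the oxidase pathway list (*Sh3pxd2a*, log2 difference 0.50, adjusted p = 0.0356) and 1 of the H2O2 removal list (*Gclm*), and put *Lpo* at 0.24 and *Arhgdib* at 0.38. Same-numbered libraries did not deviate together (r = -0.0286, -0.0898 and -0.0556), a check that shows no sign of pairing by number but cannot exclude it. The replicate block changed no call (0 genes called). edgeR and DESeq2 on all 6 libraries were not run because whole reads of WT3 could not be checked. Genes of few reads, such as *Nox4* and *Duox1*, are limited by depth.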
